A study of Mus musculus with 11 samples.

Results

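Genes of the extracellular matrix and of the contractile machinery were examined in mouse microglia, the resident macrophages of the brain. The list held 45 genes, of which 43 were matched to at least 1 array probe through the RefSeq accession of the probe, and 42 were tested among 19572 genes. Fn1 (fibronectin) and Thbs1 (thrombospondin 1) had no matched probe, and the probes of Postn (periostin) were not well above background on every array of any group. Values are log2 quantile-normalised signals, averaged over the probes of a gene, so that a step of 1 is a doubling. RNA came from C57BL/6N mice without a transgene or deletion and was hybridised to 11 single-colour Agilent arrays. A_FACS (n = 2) was microglia of adult females, and NB_FACS (n = 3) was microglia of newborn pups of both sexes. Both were sorted by flow cytometry on intermediate CD45 and high CX3CR1 and lysed without culture. NB_Control (n = 3) was newborn microglia shaken off mixed glial flasks. These flasks had been seeded with several pooled brains and fed with conditioned medium of the fibroblast line L-929. The shaken-off cells were then cultured for 1 day in DMEM/F12 with serum, and the paper's legend for these arrays names no coating of the wells. NB_Stim (n = 3) was cultured in the same way with human TGF-β1, IL-34 and CX3CL1, each at 100 ng/mL. By the paper's methods, adults were killed with CO2 and perfused, and their brains were pressed through a strainer. Pups were decapitated, and their brains were dissociated with pipettes. The comparison of cultured with sorted cells therefore also changes the isolation method and the time spent in a mixed flask. The comparison of adult with newborn cells also changes sex, perfusion and tissue dissociation. These cannot be told apart here.

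Fibrillar collagens are secreted as procollagens, trimmed, assembled into fibrils and crosslinked by lysyl oxidases, whereas basement membranes are sheets built from collagen IV, laminins and nidogens. Smooth muscle α-actin, transgelin, calponin and tropomyosins form and regulate the contractile filaments of smooth muscle cells, pericytes and myofibroblasts. In the brain most of these genes are known from perivascular and meningeal fibroblasts, mural cells, endothelium and astrocytes, and many of them are classical targets of TGF-β in fibroblasts.

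Between 66.8% and 80.5% of probes were well above background per array, and no spot was saturated. The newborn arrays of replicate 3 shared a second scan date in the file headers, whereas the other 8 arrays shared the first. Arrays with the same scan date are called a slide here, as no slide label was read. Replicates 1 and 2 of NB_Control and of NB_Stim were closer to each other (SD of the log2 difference over genes 0.262 and 0.295) than to replicate 3 of their group (0.565 to 0.701). The members were low on NB_Stim replicate 3, where 5 of 42 lay above their group mean and the median deviation from it was -0.64, against 0.00 over all genes. They also split between the adult arrays, since 6 of 42 members lay above the group mean on A_FACS replicate 1 and 36 on A_FACS replicate 2. Main values that rest on these arrays are also given without them below, with counts of members for NB_Stim replicate 3. All 12 tested microglia and macrophage markers, such as Csf1r and C1qa, were well above background on every array. In bulk samples, more cells of another type and more RNA of a gene per cell cannot be told apart.

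Promoter sequences were available for 27 of the 45 genes in a RefSeq table of build GRCm38.p6 (250 bases before to 50 after the annotated start). They are shown for 3 contractile genes and 1 collagen whose levels are described below, and capitals mark a match to a motif known from muscle promoters. In Myl9 the capitals are a CArG box, the site of serum response factor. In the others they are an MCAT element, the site of TEAD factors, searched as CATTCC on both strands.
Myl9: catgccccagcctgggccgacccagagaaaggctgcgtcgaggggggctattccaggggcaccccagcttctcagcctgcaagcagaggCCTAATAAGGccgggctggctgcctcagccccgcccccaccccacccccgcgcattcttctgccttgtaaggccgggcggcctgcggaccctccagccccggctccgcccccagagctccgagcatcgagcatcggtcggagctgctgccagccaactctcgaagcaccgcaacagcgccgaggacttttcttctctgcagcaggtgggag
Acta2: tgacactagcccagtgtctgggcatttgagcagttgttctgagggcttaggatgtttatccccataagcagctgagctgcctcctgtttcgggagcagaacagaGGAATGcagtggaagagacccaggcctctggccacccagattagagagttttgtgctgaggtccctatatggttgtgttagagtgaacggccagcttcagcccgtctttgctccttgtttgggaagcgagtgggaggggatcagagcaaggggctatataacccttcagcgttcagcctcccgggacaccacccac
Tpm1: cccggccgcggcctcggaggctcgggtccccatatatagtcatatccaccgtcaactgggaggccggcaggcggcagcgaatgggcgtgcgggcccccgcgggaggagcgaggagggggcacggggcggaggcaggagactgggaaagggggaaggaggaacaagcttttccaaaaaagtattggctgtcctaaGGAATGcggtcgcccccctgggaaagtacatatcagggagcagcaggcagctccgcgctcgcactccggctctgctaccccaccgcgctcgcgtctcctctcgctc
Col3a1: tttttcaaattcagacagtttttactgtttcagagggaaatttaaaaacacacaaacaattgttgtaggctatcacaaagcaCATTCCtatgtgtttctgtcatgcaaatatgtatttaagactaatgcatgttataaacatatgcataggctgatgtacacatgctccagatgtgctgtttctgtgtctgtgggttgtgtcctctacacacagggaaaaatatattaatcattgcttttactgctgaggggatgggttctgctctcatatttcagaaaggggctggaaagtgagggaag
These lie at chr2:156775214-156775513 on the plus strand for Myl9, chr19:34255324-34255623 on the minus strand for Acta2, chr9:67049164-67049463 on the minus strand for Tpm1 and chr1:45311288-45311587 on the plus strand for Col3a1. The match begins 161 bases before the start in Myl9, 146 in Acta2, 56 in Tpm1 and 168 in Col3a1. A CArG box, searched on both strands with no mismatch allowed, was found in 2 of the 27 member genes (Lama2 and Myl9) and in 1.63% of all 32851 promoters of the table. An MCAT element was found in 5 members (Acta2, Col3a1, Col6a2, Nid1 and Tpm1) and in 14.7% of all promoters. The Smad box GTCTAGAC, which is its own reverse complement, was found in 0 of the 27 and in 0.213% of all. These matches describe letters in a fixed window only. The 300-base windows of Col4a1 and Col4a2, which are transcribed away from each other on chromosome 8, overlapped by 78 bases.

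The first comparison asked how cultured newborn microglia differed from newborn microglia taken directly from the brain. Matrix and contractile genes rose broadly in culture. Of the 42 members tested, 35 were higher in NB_Control than in NB_FACS at an adjusted p below 0.05 in limma, 1 was lower and 6 did not pass. Over all genes, 15.8% were called higher and 13.9% lower in this comparison. The median log2 difference was 3.20 over the members and 0.09 over all genes tested. All 5 fibrillar collagens, all 4 other collagens, all 4 genes listed under collagen folding and processing and all 6 contractile genes rose.

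**Figure D1:**
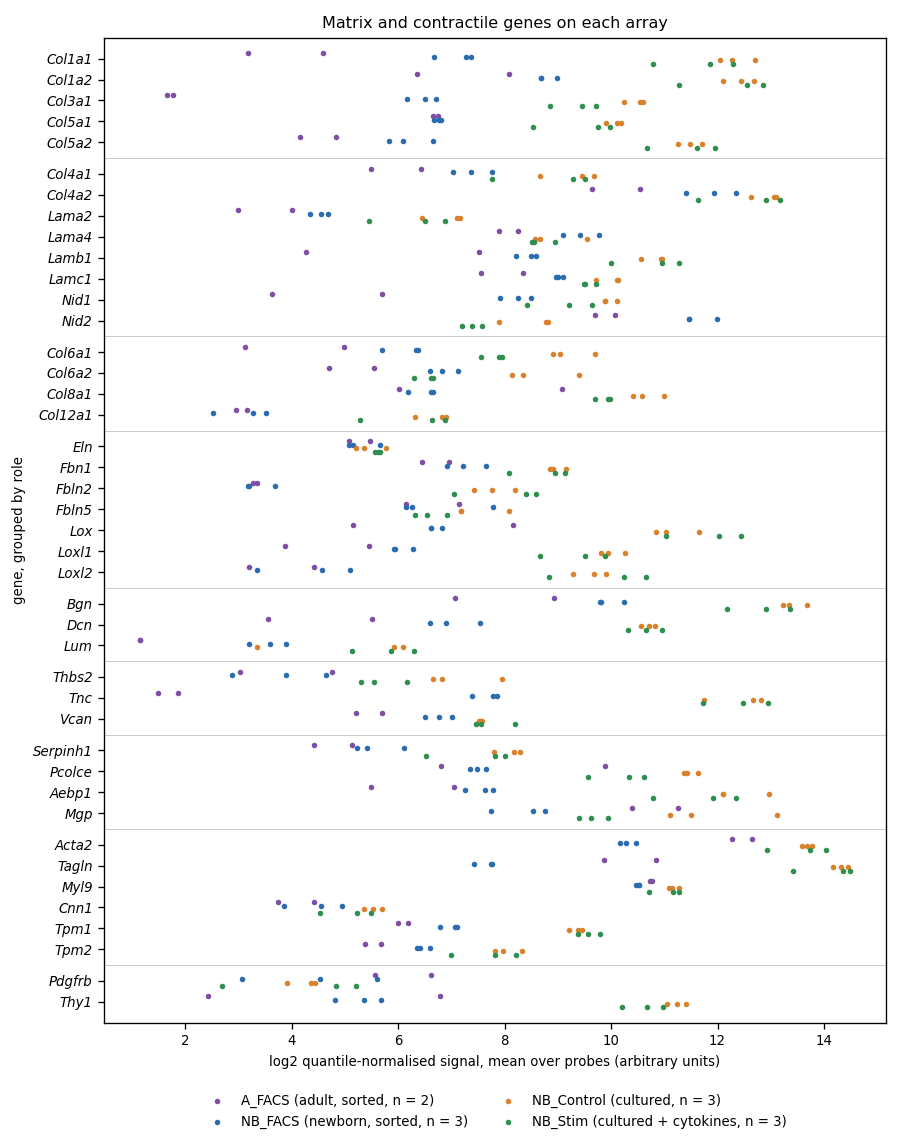
Log2 quantile-normalised signal of the 42 tested genes on each of the 11 arrays (x axis, arbitrary units), with 1 point per array coloured by group and genes ordered by role (lines separate roles). For Tagln the cultured arrays lie between 13.41 and 14.49 and the newborn sorted arrays between 7.43 and 7.77.

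Among the fibrillar collagens, Col1a1, which encodes the α1 chain of type I collagen, read 6.68, 7.37 and 7.27 on the NB_FACS arrays and 12.05, 12.27 and 12.70 on the NB_Control arrays. The groups lay far apart, and the difference was 5.23 ± 0.44 (SE), or 37.6-fold, with an adjusted p of 2.3e-05. Col5a2, a chain of the collagen V that sets fibril diameter, read 5.83, 6.10 and 6.65 in NB_FACS and 11.48, 11.70 and 11.26 in NB_Control, a 39-fold difference (adjusted p = 4.72e-06). Col3a1, the chain of type III collagen, went from between 6.18 and 6.72 to 10.55, 10.60 and 10.25, a 16-fold difference (adjusted p = 2.57e-06). Col1a2 and Col5a1 rose by 3.62 and 3.32 on the log2 scale. Type VI, VIII and XII collagens followed, with log2 differences of 1.78 for Col6a2, 3.08 for Col6a1, 3.57 for Col12a1 and 4.17 for Col8a1. Col12a1 was not well above background on any NB_FACS array, and its change was at least 11.9-fold. It passed the filter through the cultured arrays only, which set the direction of this difference.

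Basement membrane genes moved in both directions. Of the 8 tested, 5 rose, 1 fell and 2 did not pass the test, with a median log2 difference of 1.38. Nid2, which encodes nidogen 2, a linker between laminin and collagen IV, was the member that fell. It read 11.47, 11.47 and 11.99 in NB_FACS and 8.81, 8.78 and 7.90 in NB_Control, a difference of -3.15 ± 0.26 (8.86-fold, adjusted p = 2.17e-05). Its paralogue Nid1 moved the other way by 1.74 ± 0.47, from a mean of 8.22 to 9.96 (adjusted p = 0.0189). The laminin chains Lama2, Lamb1 and Lamc1 rose by 2.38, 2.39 and 0.97. The calls of Nid1 and of Lamb1 were lost on leaving out NB_FACS replicate 2 or NB_Control replicate 2, and that of Lamb1 also without NB_FACS replicate 1 or NB_Control replicate 1. Lama4, a laminin chain of vessel walls, differed by -0.50 ± 0.28 (adjusted p = 0.219). With the replicate number as a block the same difference passed, at an adjusted p of 0.0453, which brought the members called lower to 2. Col4a1 rose by 1.88 ± 0.47 (adjusted p = 0.0127), a call lost without NB_FACS replicate 2 or NB_Control replicate 2, whereas the 1.02 ± 0.41 of Col4a2 missed the threshold at an adjusted p of 0.0959. Col4a2 was already among the brighter members in sorted cells, at 11.94, 11.41 and 12.35.

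All 3 lysyl oxidases among the members rose. Loxl2, which crosslinks collagen IV among other substrates, read 3.35, 4.58 and 5.09 in NB_FACS and 9.68, 9.91 and 9.29 in NB_Control, a 39.1-fold difference (adjusted p = 8.97e-05). This size is approximate, as 1 of its 2 probes was well above background on 8 of the 11 arrays only. Lox, the founding member of the family, rose by 4.49 ± 0.65 and Loxl1 by 3.96 ± 0.40. Fbln2 (fibulin 2) rose by 4.44 and Fbn1 (fibrillin 1) by 1.71. These means include probes that were well above background on 6 of the 11 arrays only (2 of Fbln2 and 1 of Fbn1), so their sizes are approximate, and the brightest probe of Fbn1 did not pass. Eln, the gene of elastin itself, stayed between 5.08 and 5.77 on the 6 arrays and differed by 0.15 ± 0.20 (adjusted p = 0.628), and Fbln5, which binds elastin to cells, by 0.75 ± 0.46 (adjusted p = 0.269). The elastic fibre genes thus held both steep rises and differences within the replicate spread.

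Among the proteoglycans, Dcn (decorin) and Bgn (biglycan) rose by 3.69 and 3.47, while Lum (lumican) read 3.20, 3.59 and 3.89 in NB_FACS and 6.09, 5.92 and 3.35 in NB_Control. Replicate 3 of NB_Control lay within the range of the sorted cells, and Lum did not pass the test (1.56 ± 0.63, adjusted p = 0.0944). On slide 1 alone it differed by 2.61 (adjusted p = 0.000189). Tnc, the gene of tenascin C, a glycoprotein of developing and injured tissue, rose from 7.87, 7.78 and 7.38 to 12.82, 12.67 and 11.75, a 26.7-fold difference (adjusted p = 1.06e-05). Thbs2 (thrombospondin 2), well above background on 1 of the 3 NB_FACS arrays, rose by 3.34, and Vcan (versican) by 0.78. The call of Vcan was lost on leaving out any 1 NB_Control array, NB_FACS replicate 2 or NB_FACS replicate 3. Of the genes listed under collagen folding and processing, Aebp1, a collagen-binding carboxypeptidase-like protein, changed most, by 4.83 ± 0.48. Pcolce, the enhancer of procollagen C-proteinase, rose by 3.98 and Serpinh1, the collagen chaperone HSP47, by 2.50. Mgp (matrix Gla protein), a calcification inhibitor grouped with them, rose by 3.56.

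Tagln, the gene of transgelin, had the largest difference of all 42 members. It read 7.77, 7.43 and 7.75 in NB_FACS and 14.16, 14.46 and 14.31 in NB_Control, which is 6.66 ± 0.31 on the log2 scale or 101-fold (adjusted p = 1.01e-06). Acta2 (smooth muscle α-actin) rose by 3.38 ± 0.26, Tpm1 (α-tropomyosin) by 2.36 ± 0.16 and Tpm2 (β-tropomyosin) by 1.59 ± 0.28. Cnn1 (calponin 1) rose by 1.08 ± 0.32 and Myl9 (a regulatory myosin light chain) by 0.66 ± 0.16. The call of Cnn1 was lost on leaving out any 1 NB_Control array, NB_FACS replicate 2 or NB_FACS replicate 3. Of the surface proteins, Thy1 (CD90), a marker of fibroblasts and neurons, rose from 5.68, 4.82 and 5.37 to 11.05, 11.41 and 11.23, a 61.3-fold difference (adjusted p = 0.000537). Pdgfrb, the receptor that marks pericytes, did not pass the test, and it read between 3.08 and 5.60 in NB_FACS and 4.37, 3.91 and 4.45 in NB_Control (-0.16 ± 0.73, adjusted p = 0.901).

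**Figure D2:**
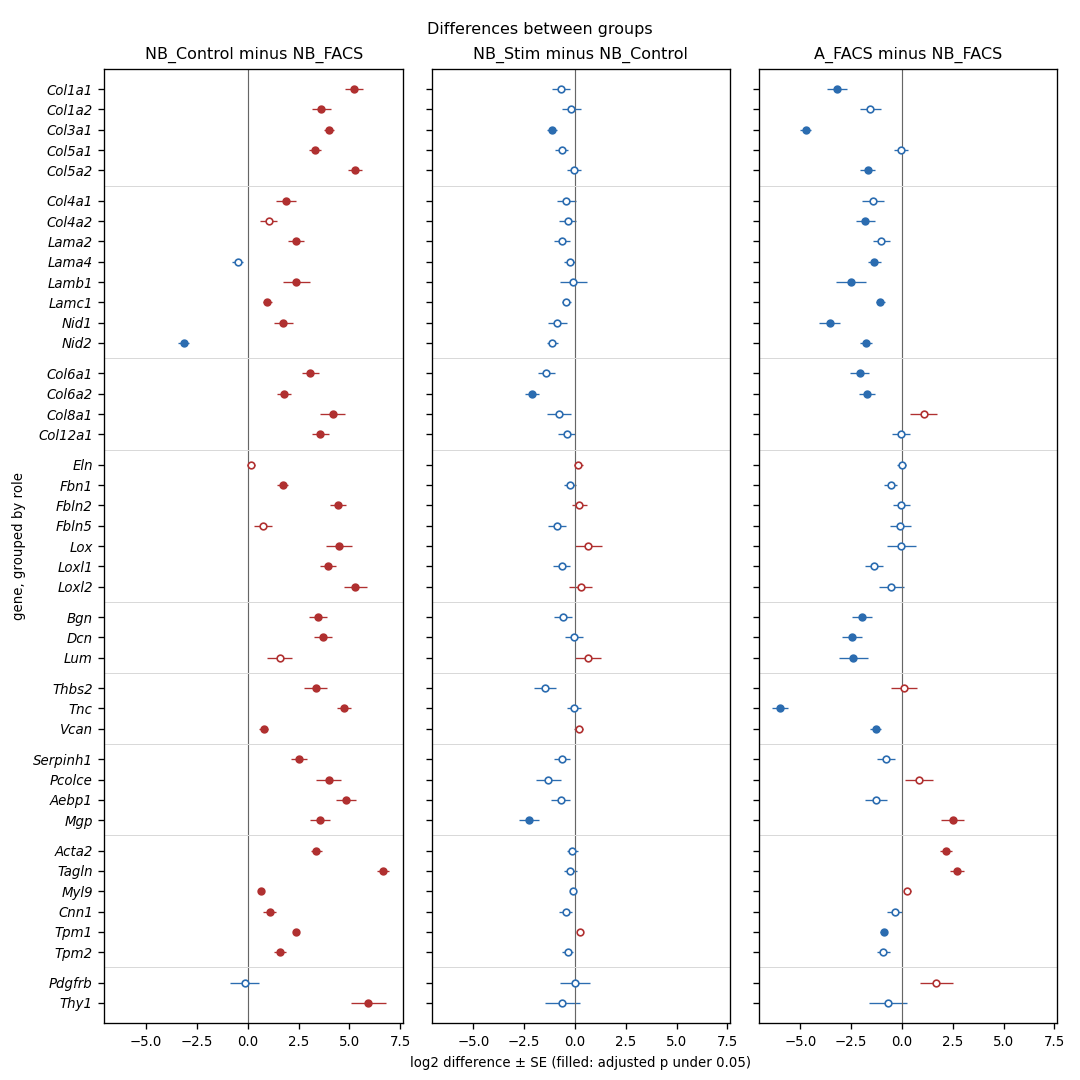
Log2 difference ± SE (x axis) of the 42 genes in 3 comparisons, with filled points where the adjusted p was below 0.05, red above 0 and blue below. In cultured against sorted cells 35 genes were called higher, with cytokines 3 were called lower, and in adult against newborn cells 17 were called lower and 3 higher.

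Several genes were measured by probes for different RefSeq transcripts, and these did not always move together. Acta2 had a probe for NM_007392 that went from a mean of 6.13 in NB_FACS to 13.46 in NB_Control (7.33) and a brighter probe for the predicted transcript XM_006526606 that read 14.49 and 13.92 (-0.57). With the brightest probe alone Acta2 therefore differed by -0.57 (adjusted p = 0.165), and its value of 3.38 is the mean of both probes. The 9 probes of Tpm1 ranged from -0.03 for XM_006511046 to 4.78 for NM_024427. Tpm2 spanned 0.21 to 3.35 over its probes, Cnn1 0.07 to 2.08 and Fbn1 0.05 to 3.37. The upper values of Tpm2 and Fbn1 came from probes well above background on 6 of the 11 arrays, so they are not exact. Loxl2 rose on both probes, by 7.08 and 3.49. The probes behind this 7.08 and the 4.78 of Tpm1 were well above background on 8 of the 11 arrays, so these are not exact either. The brightest of the Vcan probes differed by -0.12 (adjusted p = 0.785). Whether these probes report different transcripts or other RNA was not tested.

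**Figure D3:**
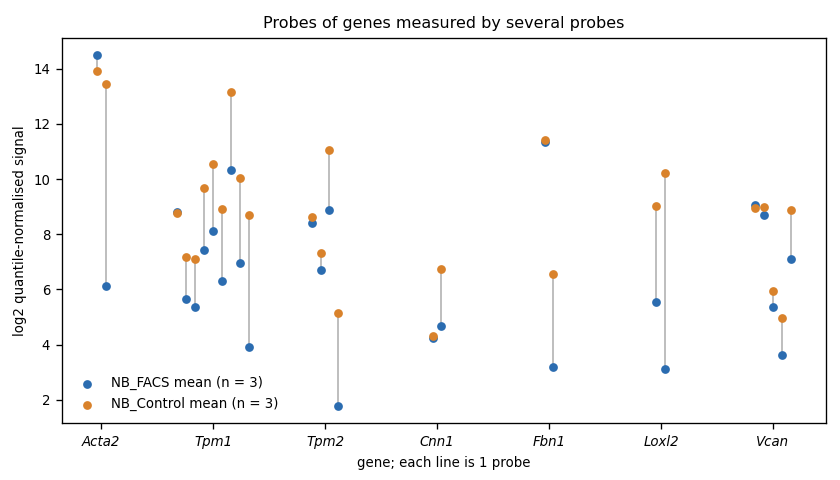
Mean log2 signal in NB_FACS (blue) and NB_Control (orange, n = 3 arrays each) of every kept probe of 7 genes with several probes, with a line joining the means of 1 probe. The probe pair of Acta2 reads 14.49 and 13.92 on one line and 6.13 and 13.46 on the other.

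Markers of other cell types were read beside these changes, against 15.8% of all genes called higher and 13.9% lower. Of 27 fibroblast markers listed, 26 had a probe and 23 passed the filter, which keeps a gene bright in 1 group only. Of these 23, 11 rose in culture and 0 fell (median 1.33). The transcription factor genes Tbx18 and Twist2 were not well above background on any NB_FACS array. They averaged 8.05 and 6.93 in NB_Control, which is at least 35.1-fold and 19.3-fold higher. Both passed the filter through the cultured arrays only, so the direction of their difference was set by it. Prrx1 rose by 3.26 and Fgf7 by 5.18, whereas Pdgfra differed by 1.49 (adjusted p = 0.0537) and Twist1, Osr1, Igf2, Islr and Dpt did not pass. The summed signal of the list was 4920 to 6310 in NB_FACS and 7620 to 9950 in NB_Control. Of 11 mural cell markers, Anpep and Foxs1 rose and Rgs5 and Higd1b fell. Rgs5, a pericyte marker, averaged 8.56 in NB_FACS and 2.32 in NB_Control. The mural sum was 3190 to 18800 in NB_Control, its highest value on replicate 3, where Anpep reached 13.97. Endothelial markers had 0 of 10 higher and 5 lower. Of the glial and meningeal lists, 2 of 8 astrocyte, 1 of 10 leptomeningeal and 1 of 5 oligodendrocyte lineage markers were higher. Lower were 1 leptomeningeal and 0 astrocyte and oligodendrocyte lineage markers. These counts are too small to set apart from the share over all genes. Of 8 neuron markers 0 were higher and 2 lower, and of 12 microglia and macrophage markers 2 were higher and 3 lower. The microglial markers summed to 407000 to 418000 in NB_FACS and 324000 to 382000 in NB_Control. The part of these cell types in the matrix values was not tested.

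**Figure D4:**
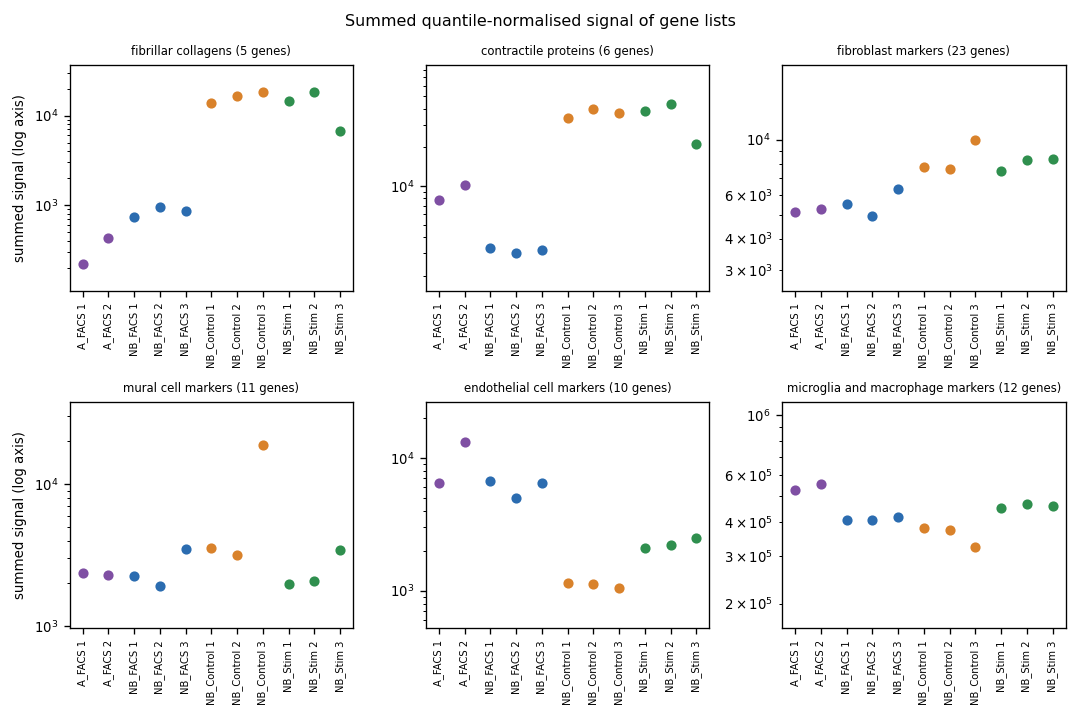
Summed quantile-normalised signal (y axis, log scale, arbitrary units, a different range in each panel) of 6 gene lists on the 11 arrays, coloured by group as in the plot of single genes. Fibrillar collagens sum to 746 to 954 on NB_FACS and 13900 to 18100 on NB_Control arrays, and fibroblast markers to 4920 to 6310 and 7620 to 9950.

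Wider lists of the same pathways were also read. Of 61 further matrix genes tested, 21 were higher and 8 lower in NB_Control than in NB_FACS, with a median of 0.18. The shares over all genes were 15.8% higher and 13.9% lower, and the 8 lower were near the latter. The collagen biosynthesis enzymes had 10 of 23 higher and 3 lower, further contractile and actin-binding genes 12 of 27 higher and 3 lower, and TGF-β response genes 5 of 18 higher and 8 lower. Efemp1 (fibulin 3) was among the matrix genes that rose, by 4.49. Tgfbi, a secreted adhesion protein named for its induction by TGF-β, differed by -0.73 (adjusted p = 0.0485).

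The second comparison asked how cells cultured with TGF-β1, IL-34 and CX3CL1 differed from cells cultured without them. No member was called higher, and 3 were lower. With limma, 0 of 42 members were called higher (also 0 at an unadjusted p below 0.05 and 0 with the Tukey test) and 3 lower, against 1.4% and 2% of all genes. At an unadjusted p below 0.05 there were 6 members lower, while 2969 of all 19572 genes passed in either direction. With the Tukey test 0 members were lower, against 0.49% of all genes. The median difference was -0.42 over the members and 0.00 over all genes.

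Col6a2, a chain of the microfibrillar collagen VI, read 8.14, 8.34 and 9.39 in NB_Control and 6.66, 6.62 and 6.30 in NB_Stim. The groups did not overlap, and the difference was -2.10 ± 0.34 (4.29-fold, adjusted p = 0.00888). The cytokine-treated arrays overlapped those of the sorted newborn cells, which read 6.61, 7.12 and 6.82. Mgp, an inhibitor of calcification, read 11.10 to 13.12 on the NB_Control arrays and 9.94, 9.63 and 9.40 in NB_Stim (-2.25 ± 0.49, adjusted p = 0.0381). Col3a1 read 10.55, 10.60 and 10.25 against 9.46, 9.72 and 8.85 (-1.12 ± 0.23, adjusted p = 0.03). All 3 genes were lower with cytokines in each same-numbered pair of arrays. The call of Col6a2 held without any 1 array, that of Col3a1 was lost without NB_Control replicate 1, NB_Control replicate 2 or NB_Stim replicate 1, and that of Mgp was lost without any 1 NB_Stim array, NB_Control replicate 2 or 3, or NB_FACS replicate 2. The count of members lower was 1 without NB_Control replicate 2 (0.955% of all genes) and 1 without NB_Stim replicate 1 (0.945%). It was 0 when replicates 1 and 2 of each cultured group were averaged first (0.296% of all genes). Leaving out either adult array, which changes the shared spread only, raised the count of members and slightly that of all genes.

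Further members lay near the threshold. Nid2, already lower in culture, differed by another -1.11 ± 0.26 (adjusted p = 0.0535). It passed with the slide as a block (adjusted p = 0.0421) and on slide 1 alone (-1.51, adjusted p = 0.00357), but not with the replicate number as a block (adjusted p = 0.0627). Col6a1, the partner chain of Col6a2, differed by -1.41 ± 0.43 (adjusted p = 0.126), Pcolce by -1.31 ± 0.62 (adjusted p = 0.365) and Thbs2 by -1.47 ± 0.56 (adjusted p = 0.242). With the replicate number as a block Thbs2 also passed, which made 4 members lower, at an adjusted p of 0.0295. Neither Tagln (-0.22 ± 0.31) nor Acta2 (-0.12 ± 0.26) passed, and their means in NB_Stim were 14.09 and 13.57. On slide 1 alone their differences were 0.12 and 0.20. Col1a1 read 11.86, 12.30 and 10.78 in NB_Stim, against 12.05, 12.27 and 12.70 in NB_Control (-0.69 ± 0.44, adjusted p = 0.548). Without NB_Stim replicate 3 it differed by -0.26, and 2 members were lower and 0 higher (1.8% and 1.31% of all genes).

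The differences with cytokines were read within each slide, where slide 2, replicate 3 and its single arrays cannot be told apart. On slide 1, which held replicates 1 and 2, 18 of 42 members were above 0 and 24 below, with a median of -0.06. On slide 2, with 1 array a group and no test, 3 were above 0 and 39 below, with a median of -1.05. The counts by slide and by pair were made for the members only, without the share over all genes. Over the 42 members, 17 were lower in all 3 same-numbered pairs and 1 (Tpm1) was higher in all 3. In contrast, 13 were higher in pairs 1 and 2 and lower in pair 3. Lox was one of these. It read 10.84, 11.04 and 11.65 in NB_Control and 12.03, 12.45 and 11.04 in NB_Stim, so that the pairs differed by 1.19, 1.41 and -0.61 (0.67 ± 0.65 in the fit, adjusted p = 0.745). Lum went the other way, with 1.79 in pair 3 and -0.22 and 0.38 in the others. Of the 6 contractile genes 5 were lower in pair 3, and Tpm1 differed there by 0.00129. Some markers of other cell types were also higher on NB_Stim replicate 3. The oligodendrocyte lineage markers summed to 2790 there and to 998 and 1020 on replicates 1 and 2. That sum rested on Olig2 (10.94 against 8.21 and 8.35) and Olig1 (8.73 against 7.05 and 7.17). The others of that list, Mbp, Cldn11 and Gpr17, were lower on replicate 3. The astrocyte markers summed to 3910 against 2930 and 2990. Pdgfra, which is on the fibroblast list and also marks oligodendrocyte precursors, read 10.10 against 8.06 and 8.10. The part of these cells in the member values was not tested.

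**Figure D5:**
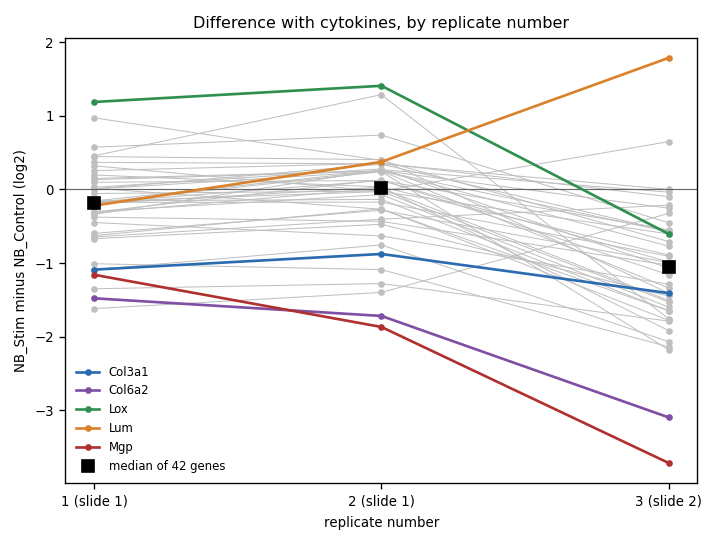
Log2 difference of NB_Stim minus NB_Control (y axis) between the arrays of the same replicate number (x axis), with a line joining the values of each of 42 genes, 5 genes in colour and black squares for the median. Mgp reads -1.16, -1.87 and -3.72, and Lox 1.19, 1.41 and -0.61.

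Related lists were read in the same comparison. Of 18 TGF-β response genes tested, 4 rose with cytokines and 0 fell, against 1.4% and 2% of all genes. Tgfbi read 11.44, 11.41 and 10.52 in NB_Control and 14.03, 13.84 and 14.11 in NB_Stim, a 7.3-fold difference (adjusted p = 0.000281), and these values exceeded the 11.81 to 11.91 of NB_FACS. The receptor gene Tgfbr1 rose by 1.92 ± 0.21 and the co-repressor genes Ski and Skil by 1.49 ± 0.12 and 1.26 ± 0.18. Tgfbi also belongs to the further matrix genes, of which 2 of 61 rose (Tgfbi and Bcan, the brain proteoglycan brevican, by 0.62) and 1 fell. The one that fell was Efemp1, from 7.77, 8.00 and 8.72 to 4.83, 5.23 and 4.95 (-3.16 ± 0.38, adjusted p = 0.00201). Of 23 collagen biosynthesis enzymes 1 fell, Adamts2, the procollagen N-proteinase, by -2.57 ± 0.42 (adjusted p = 0.00937). Of 27 further contractile genes 1 rose, Pdlim7, by 0.67. Of the 23 fibroblast markers, 0 were higher and 3 lower with cytokines (Prrx1 by -1.33, Twist2 by -1.90 and Fgf7 by -2.12), and their summed signal was 7450 to 8350 in NB_Stim. Anpep differed by -3.05 (adjusted p = 0.0811, and 0.0171 with the replicate number as a block). The microglial markers summed to 452000 to 467000. Whether these shifts bear on the members was not tested.

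Cells cultured with cytokines were also set against the sorted newborn cells. Of 42 members, 31 were higher in NB_Stim than in NB_FACS, 1 was lower and 10 did not pass, with a median of 2.26 (all genes 0.11). In limma with all arrays the shares over all genes were 15.9% higher and 15.1% lower. The Tukey test called 19 members higher and 1 lower (8.98% and 9.52% of all genes). Without NB_Stim replicate 3 limma called 31 and 1 (18.3% and 15.3% of all genes). This comparison shares its sorted arrays with the first. Tagln was 86.7-fold higher (6.44 ± 0.31), Loxl2 about 47.7-fold and Thy1 40.1-fold. Nid2 was 19.2-fold lower, at 7.19, 7.39 and 7.58. The 10 that did not pass included Col6a2 (-0.32 ± 0.34, adjusted p = 0.506), Lama4 (-0.77 ± 0.28, adjusted p = 0.063) and Mgp (1.31 ± 0.49, adjusted p = 0.0705). With the replicate number as a block Lama4 passed at an adjusted p of 0.00765, which made 2 members lower, and Mgp at 0.0436. Lum, which had not passed without cytokines, was 2.21 ± 0.63 higher (adjusted p = 0.0236), a call lost on leaving out replicate 1 or 2 of NB_FACS or of NB_Stim. The difference between these results is that of Lum with cytokines, which did not pass (0.65 ± 0.63, adjusted p = 0.746).

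The last comparison set adult against newborn cells, both sorted. Several collagens, laminins and proteoglycans were lower in adult cells, and Tagln, Acta2 and Mgp were higher. Of 42 members, 17 were lower and 3 higher in A_FACS than in NB_FACS, and 22 did not pass. The Tukey test called 6 lower and 2 higher, against 6.55% and 3.75% of all genes. In limma 12.9% of all genes were lower and 9.75% higher. The median difference was -0.98 over the members and -0.01 over all genes. By role, 3 of 5 fibrillar collagens, 6 of 8 basement membrane genes, 2 of 4 other collagens and all 3 small proteoglycans were lower, and 0 of 7 elastic fibre genes passed in either direction. With the replicate number as a block 21 members were lower, and the share of all genes called lower also rose, to 16.7%. The added members were Col1a2 (adjusted p = 0.0323), Col4a1 (adjusted p = 0.04), Lama2 (adjusted p = 0.017) and Loxl1 (adjusted p = 0.0424).

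Tnc fell furthest. It read 1.49 and 1.87 on the adult arrays, not well above background, and 7.87, 7.78 and 7.38 in NB_FACS, which is at least 38.5-fold lower (adjusted p = 2.04e-05). Col3a1, at 1.76 and 1.67, was likewise not well above background in adult cells and at least 17.1-fold lower. Nid1 read 3.63 and 5.69 against 8.49, 7.91 and 8.26 (-3.56 ± 0.53), and Col1a1 3.19 and 4.59 against 6.68, 7.37 and 7.27 (-3.22 ± 0.50). Without A_FACS replicate 1 these were -2.53 and -2.52, and without A_FACS replicate 2 they were -4.59 and -3.92, past the threshold each time. Lum was not well above background in adult cells and at least 2.29-fold lower, a call lost without either adult array or any 1 NB_FACS array. Dcn differed by -2.48, or by -1.50 and -3.46 without A_FACS replicate 1 and 2, and passed each time. Nid2 differed by -1.75 in adult cells and by -3.15 in cultured cells, both against the same newborn arrays.

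The 3 members that were higher in adult cells were Tagln, at 9.87 and 10.84 (2.71 ± 0.35, adjusted p = 0.000631), Acta2, at 12.27 and 12.65 (2.15 ± 0.29, adjusted p = 0.000725), and Mgp, at 10.39 and 11.26 (2.48 ± 0.55, adjusted p = 0.0102). The call of Mgp was lost without A_FACS replicate 2. The NM_007392 probe of Acta2 averaged 6.13 in NB_FACS and 10.46 in A_FACS, and the other probe 14.49 and 14.46, so that with the brightest probe alone Acta2 differed by -0.03. The contractile genes were not raised as a group, since Tpm1 was lower by -0.90 ± 0.17 (adjusted p = 0.00522; with its brightest probe alone -0.27, adjusted p = 0.555) and Cnn1, Myl9 and Tpm2 did not pass. Pdgfrb differed by 1.69 ± 0.82 (adjusted p = 0.175). Of the cell type markers, 0 of 11 mural genes and 2 of 10 endothelial genes were higher in adult cells, against 9.75% of all genes. The endothelial sum was 6520 and 13100 on the adult arrays and 4960 to 6730 in NB_FACS. The part of vascular cells was not tested.

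The adult values rest on arrays that disagreed for many members. Thy1 read 2.44 and 6.78 (-0.68 ± 0.94), Pcolce 6.81 and 9.88 (0.85 ± 0.69), and Col8a1 6.03 and 9.07 (1.06 ± 0.67), with adjusted p-values of 0.661, 0.429 and 0.3. Lox read 5.15 and 8.15, and Lamb1, which was called lower, 4.27 and 7.52 (-2.53 ± 0.75, adjusted p = 0.0359). Without A_FACS replicate 1 the difference of Lamb1 was -0.90 and did not pass. Without A_FACS replicate 1 fewer members were called lower and more higher, and without A_FACS replicate 2 the reverse. Fewer of all genes were called in either direction each time. These fits assume that the remaining adult array varies like the other groups, so their counts are not given. Without A_FACS replicate 1 Thy1 was 1.49 higher. Of the 42 members, 32 were well above background on A_FACS replicate 1 and 39 on A_FACS replicate 2, against 39 to 41 on the NB_FACS arrays and all 42 on the cultured ones.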

How the data were processed

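RNA of mouse microglia was labelled with Cy3 and hybridised to 11 arrays. The authors deposited scanner files of Agilent Feature Extraction (11.5.1.1, per the file headers) that hold an intensity for each spot after background subtraction, and flags, and their methods used quantile-normalised values. From the deposited intensity, log2 values were computed here and quantile normalised over all non-control probes (limma 3.58.1 in R 4.3.3, with version 1.17.8 of data.table). Repeated spots of a probe were averaged without outlier-flagged spots. A probe was kept if some group had it well above background on each of its arrays (44749 of 60037). Probes were named through RefSeq accessions (36264 probes matched, 60.4%) and averaged per gene. The 11 columns of the value matrix deposited by the authors were not used, nor were coordinates of probes. The number of arrays limits the precision.

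Groups and replicate numbers came from the sample titles. Each of 19572 genes was fitted with 1 mean per group over 11 arrays, and 4 comparisons were made with the moderated test of limma, two-sided. P-values were Benjamini-Hochberg adjusted within each comparison and called below 0.05. Replicates are stated to be independent, but the cultured ones may share preparations, so p-values measure the spread between these samples. Where no array of a group was well above background, a bound was given, from the higher of the array's lowest signal well above background and the probe's own. Fits were tested on simulated data. Members, gene lists and roles were chosen with earlier results of these data known. All members could be named, with the 3 largest called rises and falls of each related list under cytokines, and the cell type markers named with values were chosen after their values were seen. Same-numbered newborn arrays deviated together in all 9 pairs (r = 0.112 to 0.489, against -0.448 to 0.364 in the other 18). The negative values all joined replicate 3 to replicate 1 or 2, and replicate 3 coincides with slide 2. Among replicates 1 and 2, differently numbered pairs (0.185 to 0.364) were as alike as same-numbered ones (0.112 to 0.367). Matching by number is therefore not shown for them. Alternatives were the scaling, background correction, probe filter, probe choice, replicate and slide blocks, the groups fitted, the Tukey test of the authors' one-way layout, averaging of cultured replicates 1 and 2, and leaving out each array. Figures were drawn with matplotlib 3.10.9.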

Additional observations from a re-analysis of the deposited data

How the results depend on the processing

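Over 22 alternatives, 50 of the 91 called member differences kept their call in all of them, namely 26 of 36 in NB_Control minus NB_FACS, 0 of 3 in NB_Stim minus NB_Control, 18 of 32 in NB_Stim minus NB_FACS and 6 of 20 in A_FACS minus NB_FACS. The members higher in NB_Control than in NB_FACS (35 of 42) ranged from 25 to 36 over all alternatives, and 0 members rose with cytokines in any. The 25 were of 32 members tested when probes had to be well above background on all arrays.

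The Tukey test called 0 members lower with cytokines, 19 higher in NB_Stim than in NB_FACS and 6 lower in adult cells. Normexp background correction gave 5 lower with cytokines (3.19% of all genes) and 2 lower in NB_Stim than in NB_FACS (15.7%). Requiring probes above background on all arrays left 20 higher in NB_Stim than in NB_FACS, with fewer members tested. Averaging cultured replicates 1 and 2 left 0 lower with cytokines (0.296% of all genes). Members lower were 2 in NB_Control and 2 in NB_Stim, each against NB_FACS, under the replicate block, which pairs arrays by number. The same counts came under the slide block and on slide 1 only, an alternative chosen after seeing the data. With only the groups compared, 2 were lower in NB_Stim against NB_FACS. The replicate block otherwise gave 35 and 33 members higher in NB_Control and NB_Stim against NB_FACS. It gave 0 higher and 4 lower with cytokines, and 3 higher and 21 lower in adult cells. Of all genes, this block called 19.9% and 21.1% higher and 17.5% and 18.9% lower in NB_Control and NB_Stim against NB_FACS. With cytokines it called 2.46% higher and 3.63% lower, and in adult cells 14.4% and 16.7%.

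Leaving out 1 array at a time gave 1 to 2 members lower in NB_Control against NB_FACS, 1 to 5 lower with cytokines, 1 to 2 lower in NB_Stim against NB_FACS, and 2 to 6 higher and 7 to 22 lower in adult cells. The 5 lower followed from leaving out either adult array, which changes the shared spread only.

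Directions turned for these values. With the brightest probe per gene, Acta2 was -0.57 in NB_Control and -0.45 in NB_Stim against NB_FACS, -0.027 in adult cells and 0.12 with cytokines, Vcan -0.12 in NB_Control against NB_FACS and 0.26 in adult cells, and Tpm1 -0.19 with cytokines. On slide 1 only, Acta2 was 0.20 and Tagln 0.12 with cytokines, and without NB_Stim replicate 3 they were 0.20 and 0.12. Without NB_Control replicate 3, Lum was -0.24 with cytokines and Eln -0.0067 in NB_Control against NB_FACS, and without the dim-probe filter Eln was -0.091. Pdgfrb was 0.44 without NB_FACS replicate 1 and 0.0056 without NB_Control replicate 2, each in NB_Control against NB_FACS. In adult cells Thy1 was 0.059 under normexp and 1.49 without A_FACS replicate 1, and without A_FACS replicate 2 Col8a1 was -0.47 and Pcolce -0.69. The ranges on leaving out 1 array were -0.0067 to 0.33 for Eln and -0.82 to 0.44 for Pdgfrb in NB_Control against NB_FACS, -0.36 to 0.20 for Acta2, -0.42 to 0.12 for Tagln and -0.24 to 1.13 for Lum with cytokines, and -0.47 to 2.58 for Col8a1, -0.69 to 2.38 for Pcolce and -2.85 to 1.49 for Thy1 in adult cells. The cause was not tested. Of the 77 differences not called, 38 changed sign in at least 1 alternative, and Thy1 in adult cells was the one that then passed. Signals not well above background give bounds only.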
